A study of Mus musculus with 18 samples.

Results

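The 10 genes described here encode the enzymes that write and remove DNA methylation and the core of the Polycomb repressive complex PRC2: Dnmt1, Dnmt3a, Dnmt3b, Uhrf1, Tet1, Tet2, Tet3, Ezh2, Suz12 and Eed. They were taken by symbol from an array table of 19752 genes, each gene being represented by the probe set with 1 annotated symbol and the highest mean over the 18 arrays. All 10 were found, through 14 probe sets. Values are log2 array intensities, on which a difference of 1 is a doubling, and the level of one probe set is not compared with that of another.

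RNA came from CD4+ regulatory T cells (Tregs), lymphocytes that need Foxp3 and hold immune responses in check, of mice on the NOD background. Spleen cells were sorted at 60 days of age from female mice that carried Foxp3-eGFP-Cre-ERT2 and Rosa26-YFP. In these mice the Foxp3 promoter drives a green reporter and a Cre recombinase that acts only in the presence of tamoxifen, so cells that express Foxp3 during treatment, and their descendants, become YFP+. All spleen groups, the untagged ones included, carried both alleles and received tamoxifen, in 4 injections between days 0 and 10 of life (perinate) or days 35 and 45 (adult). Perinate-tagged and adult-tagged cells were GFP+YFP+, and the untagged cells of either treatment were GFP+YFP-. The untagged gate therefore holds any Treg that did not recombine, whatever its age. The adult tag can likewise mark any Treg present between days 35 and 45, whenever it arose. The mice of both tagged groups had the same age at sorting, but the time since treatment differed. The thymus groups were GFP+ cells of male Foxp3-GFP mice aged 4 days (perinate) or 5 weeks (adult). Spleen cells were sorted on a FACSAria and thymus cells on a MoFlo, so organ, sex, age and sorter cannot be told apart between the organs. Each of the 6 groups had 3 arrays, which are named by the replicate numbers of the labels. The labels do not say that replicates are separate animals, and the p-values then reflect only how much these samples vary, which may be technical variation.

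The sorted cells carried their defining transcripts: Foxp3 lay between 11.88 and 12.40 on the 18 arrays. A background level of 3.95 to 6.30 was read from the X- or Y-linked control transcripts that the labelled sex should lack. Perinate-tagged replicate 2 went against its female label, with a Y-linked Eif2s3y level of 9.79 against 3.95 to 4.90 on the 11 other spleen arrays. Its Xist, an X-linked transcript of female cells, was 8.38, between the 5.70 to 6.30 of the male thymus arrays and the 11.86 to 12.41 of the other spleen arrays. Calls described below that were lost without this array are named as such. The arrays also differed in width. The interquartile range of all log2 values was 2.94 to 3.12 for the perinate-tagged group and 2.49 to 2.88 for the adult-tagged group. It was 3.00 to 3.06 in the perinate thymus and 2.08 to 2.82 in the adult thymus, where replicate 2 was the narrowest array of the series. With this went a shift of the whole distribution: the median gene differed by 0.116 between the tagged groups and by 0.168 between the thymus groups, perinate minus adult. The member differences below are to be read against these medians.

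Methylation of cytosine in CG pairs is copied to the new strand after each round of DNA replication by Dnmt1, which Uhrf1 brings to half-methylated sites. Dnmt3a and Dnmt3b place methylation on unmethylated DNA, and the Tet enzymes oxidise it and so start its removal. PRC2 methylates lysine 27 of histone H3: Ezh2 is its catalytic subunit, Suz12 holds the complex together, and Eed reads the mark and stimulates the enzyme. In Tregs, loss of methylation at a conserved region of Foxp3 goes with stable Foxp3 expression, Uhrf1 is needed for the expansion of colonic Tregs, and Ezh2 is induced on activation and needed for Treg function.

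The sequence just upstream of the transcription starts was examined in all 10 genes. Of these, Dnmt1, Uhrf1, Ezh2 and Eed were called higher in perinate-tagged than in adult-tagged cells. RefSeq (GRCm38.p6) gave 15 windows of 250 bases for the 10 genes, some genes having several starts. Of 4 E2F-like octamers searched on both strands (TTTGGCGC, TTTCCCGC, TTTGCCGC and TTTCGCGC), 1 was present in 3 windows, of Dnmt1, Uhrf1 and Suz12. Any of the 4 was present in 1.86% of 32851 such windows of the mouse table. The 30 bases around each are given 5′ to 3′ on the gene's strand, with the octamer, or its reverse complement for Dnmt1, in capitals.
Dnmt1, chr9:20952824-20952853, minus strand: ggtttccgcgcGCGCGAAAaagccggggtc
Uhrf1, chr17:56304117-56304146, plus strand: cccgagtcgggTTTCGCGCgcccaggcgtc
Suz12, chr11:79992876-79992905, plus strand: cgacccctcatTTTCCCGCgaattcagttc
Dnmt1 and Uhrf1 held the same octamer, TTTCGCGC, which 0.256% of windows contain. Its first base lay 219 bases before 1 of the Dnmt1 starts and 185 bases before 1 of the Uhrf1 starts. TTTCCCGC of Suz12, present in 0.895% of windows, also began 219 bases before the start. The Ezh2 window is shown whole because it held none of the 4 octamers but 3 matches to CCAAT, here in capitals on either strand (ATTGG on the opposite one).
Ezh2, chr6:47595031-47595280, minus strand: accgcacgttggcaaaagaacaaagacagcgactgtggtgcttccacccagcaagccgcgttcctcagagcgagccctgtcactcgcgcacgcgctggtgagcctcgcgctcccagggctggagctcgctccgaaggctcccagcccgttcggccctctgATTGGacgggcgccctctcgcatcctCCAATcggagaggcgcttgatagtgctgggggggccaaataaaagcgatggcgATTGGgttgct
CCAAT occurs in 33.8% of windows and is no mark of these genes. The Eed window also held none of the E2F-like octamers, although Eed was called higher in perinate-tagged cells. Suz12 held such an octamer and was not called there. The Ezh2 window holds 23 CG pairs in 250 bases, against a median of 6 over all windows. A match describes these letters only, and none of the arrays measured binding or methylation there.

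Perinate-tagged Tregs had higher RNA levels of Uhrf1 and Dnmt1, the maintenance pair, than adult-tagged Tregs from mice of the same age. The PRC2 subunits Ezh2 and Eed were higher there too. None of the Tet genes nor Dnmt3a passed there in the main analysis, and no member was lower. Of the 9 members that passed the filter on low levels, 4 were called higher and 0 lower by limma at a Benjamini-Hochberg adjusted p under 0.05, where 19.5% of all 10350 genes tested were called, 16% higher and 3.5% lower. Dnmt3b did not pass the filter in any fit. Some markers of other cells moved with these groups: the B cell receptor gene Cd79b was higher in perinate-tagged cells by 0.66 ± 0.14, the myeloid gene Cd68 by 0.54 ± 0.16 and the epithelial gene Epcam by 1.07 ± 0.23 (limma, adjusted p of 0.00476, 0.0276 and 0.00502). The call of Cd68 was lost after quantile normalization and without adult-tagged replicate 1. These were 1 of 1 B cell, 1 of 1 myeloid and 1 of 6 stromal or epithelial markers tested. By array, the 5 B cell markers averaged 6.36 to 6.48 in perinate-tagged and 6.33 to 6.35 in adult-tagged cells, the 6 myeloid ones 6.43 to 6.49 and 6.27 to 6.40, and the 6 stromal or epithelial ones 7.66 to 7.78 and 7.67 to 7.86. Cd79a and Ms4a1, which define B cells, were within background at group means of 5.30 and 5.21 in perinate-tagged and 5.16 and 5.48 in adult-tagged cells. Cd79b itself had group means of 8.74 to 9.55 over the 6 groups, far above background in spleen and thymus alike. The part of other cells in the member differences was not tested.

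Uhrf1 had the widest range of group means among the members, 1.91. It read 8.20, 8.48 and 8.69 in perinate-tagged replicates 2, 4 and 5, and 7.31, 7.41 and 7.21 in adult-tagged replicates 1, 2 and 3. All perinate-tagged arrays lay above all adult-tagged arrays. The difference was 1.15 ± 0.15 (SE), or 2.22-fold, with an adjusted p of 9.47e-05 (limma). Untagged cells read 7.41, 7.78 and 7.74 after perinate treatment (replicates 3, 4 and 5) and 7.62, 7.51 and 7.33 after adult treatment (replicates 3, 4 and 5). These groups overlapped, and their difference of 0.16 ± 0.15 did not pass (limma, adjusted p = 0.995). The tagged difference exceeded the untagged one by 0.99 ± 0.21 (limma interaction, adjusted p = 0.012). With the replicate number of all spleen arrays, tagged and untagged, as a block, that value was 0.88 ± 0.25 and no longer passed (limma, adjusted p = 0.083). Tagged and untagged perinate-treated arrays of the same number did not deviate together (r of -0.11 and 0 for replicates 4 and 5), so that block is uncertain. Perinate-tagged cells also exceeded the untagged cells of the same treatment by 0.82 ± 0.15 (limma, adjusted p = 0.00394). The highest values came from the perinate thymus, at 9.27, 9.06 and 9.32 in replicates 1, 2 and 3. The adult thymus read 7.97, 7.85 and 7.22, well below and with the third array apart from the others. The difference between the thymus groups was 1.54 ± 0.20, or 2.90-fold (limma, adjusted p = 0.00224). By group mean, perinate thymus stood first and perinate-tagged spleen next, with no overlap between them or with the groups below. The adult thymus, both untagged groups and the adult-tagged group followed, each overlapping its neighbour.

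Dnmt1, the maintenance methyltransferase, followed a similar order. It read 10.13, 10.23 and 10.23 in perinate-tagged cells and 9.63, 9.75 and 9.63 in adult-tagged cells, without overlap. The difference of 0.52 ± 0.14, or 1.44-fold, had an adjusted p of 0.0162 (limma). It was 0.51 and no longer passed when adult-tagged replicate 1 or 3 or perinate-tagged replicate 4 or 5 was left out, and 0.35 ± 0.12 after quantile normalization (limma, adjusted p = 0.0579). Untagged cells read 9.86, 9.53 and 9.64 after perinate treatment and 9.79, 9.31 and 9.64 after adult treatment. These overlapped throughout, and the difference was 0.10 ± 0.14. Whether the tagged difference exceeded the untagged one was not settled for Dnmt1, at 0.43 ± 0.19 (limma, adjusted p = 0.251). In the thymus Dnmt1 read 10.55, 10.37 and 10.33 in perinates and 9.39, 9.48 and 9.44 in adults. The gap was wide beside the spread of either group: 0.98 ± 0.11, or 1.97-fold (limma, adjusted p = 0.00137). Perinate thymus ranked first and perinate-tagged spleen second, without overlap between them or with the groups below, and the other 4 groups overlapped their neighbours.

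Dnmt3a, which places new methylation, was higher in the perinate than in the adult thymus, while its difference between the tagged groups did not pass. It read 9.81, 9.70 and 9.56 in the perinate thymus and 8.74, 8.14 and 8.45 in the adult thymus, a difference of 1.25 ± 0.17, or 2.37-fold (limma, adjusted p = 0.00242). Perinate-tagged arrays read 8.66, 8.82 and 9.01 and adult-tagged arrays 8.54, 8.56 and 8.37. These did not overlap, yet the difference of 0.34 ± 0.16 did not pass (limma, adjusted p = 0.138). It passed with only the groups compared (0.34 ± 0.12, limma adjusted p = 0.0463) and with array weights (0.47 ± 0.09, limma adjusted p = 0.000642). The tagged spleen difference was smaller than the thymus one by 0.91 on the log2 scale, written -0.91 ± 0.24 (limma, adjusted p = 0.0264). That call was lost in 7 of 12 fits that left out 1 array, where the value ranged from -1.06 to -0.76 over all 12. Without perinate-tagged replicate 2 it was -0.82 ± 0.25 (limma, adjusted p = 0.0662). Untagged cells read 8.61, 8.37 and 8.63 after perinate and 8.31, 7.92 and 8.56 after adult treatment, which overlapped.

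Dnmt3b, the other de novo enzyme, had the narrowest range of group means, 0.26. It read 7.0, 6.99 and 6.83 in perinate-tagged, 6.95, 7.0 and 6.95 in adult-tagged, 7.10, 6.97 and 6.72 in untagged perinate-treated and 6.99, 6.61 and 6.67 in untagged adult-treated cells. The perinate thymus read 7.0, 6.87 and 7.12 and the adult thymus 7.15, 7.09 and 6.81. Every neighbouring pair of groups overlapped. All values lay above the background of 6.30 and every group mean lay under the filter of 7.052, so Dnmt3b was not tested.

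**Figure D1:**
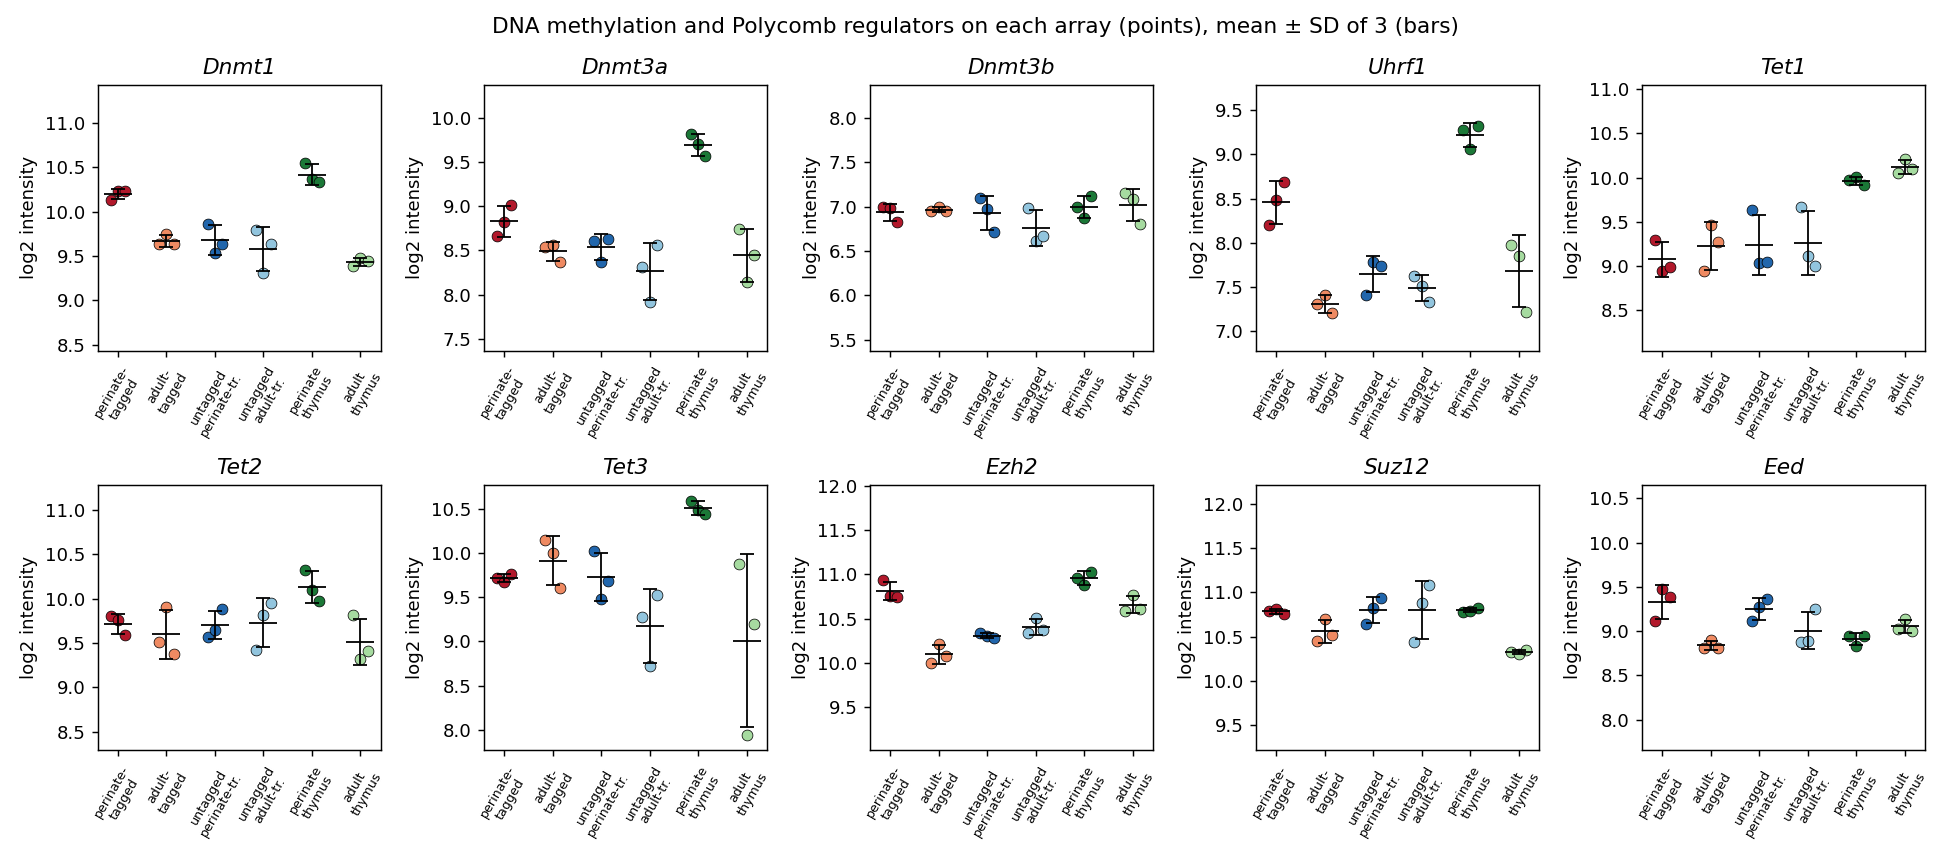
Log2 intensity of the 10 genes (y axis, each panel spanning 3 log2 units at its own level) in the 6 groups (x axis; tr., treated), 1 point per array, with the mean and SD of 3 arrays as bars. Uhrf1 and Dnmt1 are high in the perinate-tagged and perinate thymus groups. Ezh2 is high in these and also in the adult thymus, which overlaps the perinate-tagged group. Dnmt3b is level, and 1 adult thymus array is low for Tet3 (7.95).

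Among the PRC2 subunits, Ezh2 was higher in perinate-tagged cells under every setting run. It read 10.93, 10.76 and 10.74 in perinate-tagged against 10.00, 10.21 and 10.08 in adult-tagged cells, with no overlap. The difference was 0.71 ± 0.11, or 1.64-fold (limma, adjusted p = 0.00062). Untagged cells lay between them, at 10.34, 10.30 and 10.28 after perinate and 10.34, 10.51 and 10.37 after adult treatment. The untagged difference was -0.10 ± 0.11 and did not pass, and the interaction was 0.81 ± 0.16 (limma, adjusted p = 0.00814). That interaction passed in each of 12 fits that left out 1 array and each of 11 other settings, and ranged from 0.69 to 0.87. Within the perinate treatment, tagged exceeded untagged cells by 0.50 ± 0.11 (limma, adjusted p = 0.0158). Leaving out perinate-tagged replicate 2 or 4, or untagged perinate-treated replicate 4 or 5, gave values of 0.44 to 0.53 that no longer passed (limma, adjusted p of 0.0536 to 0.0725). Within the adult treatment the tagged cells were the lower ones by array values, with a difference of -0.31 ± 0.11 that did not pass (limma, adjusted p = 0.222). In the thymus Ezh2 read 10.96, 10.88 and 11.03 in perinates and 10.59, 10.77 and 10.61 in adults. These did not overlap, and the difference of 0.30 ± 0.11 did not pass (limma, adjusted p = 0.0837). It passed without the narrow adult thymus replicate 2 (0.35 ± 0.10, limma adjusted p = 0.0147). It also passed in 3 of 11 settings other than leaving out an array. These were median centring, the interquartile range as covariate and all 18 arrays, with values of 0.40, 0.41 and 0.30 (limma, adjusted p of 0.046, 0.0329 and 0.0396). The perinate thymus, the perinate-tagged spleen and the adult thymus each overlapped the next, while the 3 remaining groups, with adult-tagged cells lowest, did not overlap their neighbours, though the untagged groups met at 10.34.

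Suz12, the scaffold of the complex, read 10.79, 10.81 and 10.75 in perinate-tagged against 10.45, 10.70 and 10.52 in adult-tagged cells. The groups did not overlap, and the difference of 0.23 ± 0.15 did not pass (limma, adjusted p = 0.309). Untagged cells varied most, at 10.64, 10.82 and 10.94 after perinate and 10.44, 10.88 and 11.08 after adult treatment. In the thymus Suz12 read 10.78, 10.79 and 10.82 in perinates and 10.33, 10.30 and 10.35 in adults, with little spread in either group. The difference was 0.47 ± 0.10, or 1.39-fold (limma, adjusted p = 0.017). It fell to 0.28 ± 0.11 and lost its call after quantile normalization (limma, adjusted p = 0.11). A set of 4 groups, both untagged ones, the perinate thymus and the perinate-tagged, lay within 0.02 of each other in mean and overlapped. The adult-tagged group stood below in mean, without overlap with the perinate-tagged group or the perinate thymus. It did overlap both untagged groups, whose lowest arrays were at 10.64 and 10.44. The adult thymus stood lowest, without overlap with any other group.

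Eed, the subunit that reads the mark, was higher in perinate-tagged than in adult-tagged cells and did not pass in the thymus. Perinate-tagged cells read 9.11, 9.48 and 9.39 and adult-tagged cells 8.81, 8.90 and 8.81, without overlap. The difference was 0.49 ± 0.14, or 1.40-fold (limma, adjusted p = 0.0236). It lost its call without adult-tagged replicate 1 or 3 or perinate-tagged replicate 4 or 5, with values of 0.41 to 0.47, and was 0.27 ± 0.11 after quantile normalization (limma, adjusted p = 0.0961). Untagged cells read 9.12, 9.27 and 9.36 after perinate and 8.88, 8.89 and 9.25 after adult treatment, which overlapped. In the thymus Eed read 8.95, 8.83 and 8.95 in perinates and 9.02, 9.14 and 9.0 in adults. That difference of -0.14 ± 0.11 did not pass (limma, adjusted p = 0.338). The spleen difference exceeded the thymus one by 0.63 ± 0.18 (limma, adjusted p = 0.041), a call that was lost in 10 of 12 fits that left out 1 array. All 5 neighbouring pairs in the order of the groups overlapped for Eed.

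No Tet gene passed between the tagged groups in the main analysis. Tet1 read 9.30, 8.94 and 8.99 in perinate-tagged against 8.94, 9.47 and 9.27 in adult-tagged cells, with a difference of -0.15 ± 0.20 (limma, adjusted p = 0.628). Untagged cells read 9.63, 9.04 and 9.05 after perinate and 9.67, 9.12 and 9.0 after adult treatment. In both untagged groups replicate 3 was the high array. The 2 thymus groups stood above the 4 spleen groups without overlap, at 9.97, 10.01 and 9.92 in perinates and 10.05, 10.21 and 10.10 in adults. The arrays of the 2 groups did not overlap, but the adult thymus was not separated from the perinate thymus by the test (-0.15 ± 0.11, limma adjusted p = 0.3). The other probe sets of Tet1 gave the opposite sign in the thymus: 0.29 ± 0.11 (limma, adjusted p = 0.0759) and 0.43 ± 0.13 (limma, adjusted p = 0.0487). No direction is given for Tet1 there.

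Tet2 read 9.80, 9.76 and 9.59 in perinate-tagged against 9.51, 9.91 and 9.37 in adult-tagged cells, which overlapped (0.12 ± 0.17, limma adjusted p = 0.643). Untagged cells read 9.57, 9.65 and 9.88 after perinate and 9.42, 9.82 and 9.95 after adult treatment, also overlapping. The perinate thymus stood above at 10.32, 10.10 and 9.97, and the adult thymus read 9.81, 9.32 and 9.41. That difference was 0.62 ± 0.16, or 1.54-fold (limma, adjusted p = 0.03). It was 0.39 ± 0.14 after quantile normalization and did not pass (limma, adjusted p = 0.0775).

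Tet3 had the widest scatter. It read 9.72, 9.67 and 9.76 in perinate-tagged against 10.14, 10.00 and 9.60 in adult-tagged cells, which overlapped (-0.20 ± 0.20, limma adjusted p = 0.512). Untagged cells read 10.02, 9.48 and 9.68 after perinate treatment and 9.28, 8.72 and 9.53 after adult treatment. Adult-tagged cells lay above the untagged cells of that treatment on every array, by 0.74 ± 0.20, which did not pass (limma, adjusted p = 0.122). Without untagged adult-treated replicate 3 it was 0.79 ± 0.22 and passed (limma, adjusted p = 0.0428). The perinate thymus read 10.59, 10.48 and 10.44, and the adult thymus 9.88, 7.95 and 9.20. The low value of 7.95 was on the narrow replicate 2. The difference of 1.5 ± 0.41, or 2.82-fold (limma, adjusted p = 0.034), became 0.97 ± 0.16 without that array and passed there too (limma, adjusted p = 0.00103). With array width (interquartile range) as a covariate it was 0.28 ± 0.16 and did not pass (limma, adjusted p = 0.224). The other Tet3 probe set gave 0.79 ± 0.20 (limma, adjusted p = 0.0286). Against the thymus, the tagged spleen difference of Tet3 gave -1.69 ± 0.45 (limma, adjusted p = 0.0297), a call lost in 8 of 12 fits that left out 1 array. Without perinate-tagged replicate 2 it was -1.69 ± 0.49 (limma, adjusted p = 0.0548).

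**Figure D2:**
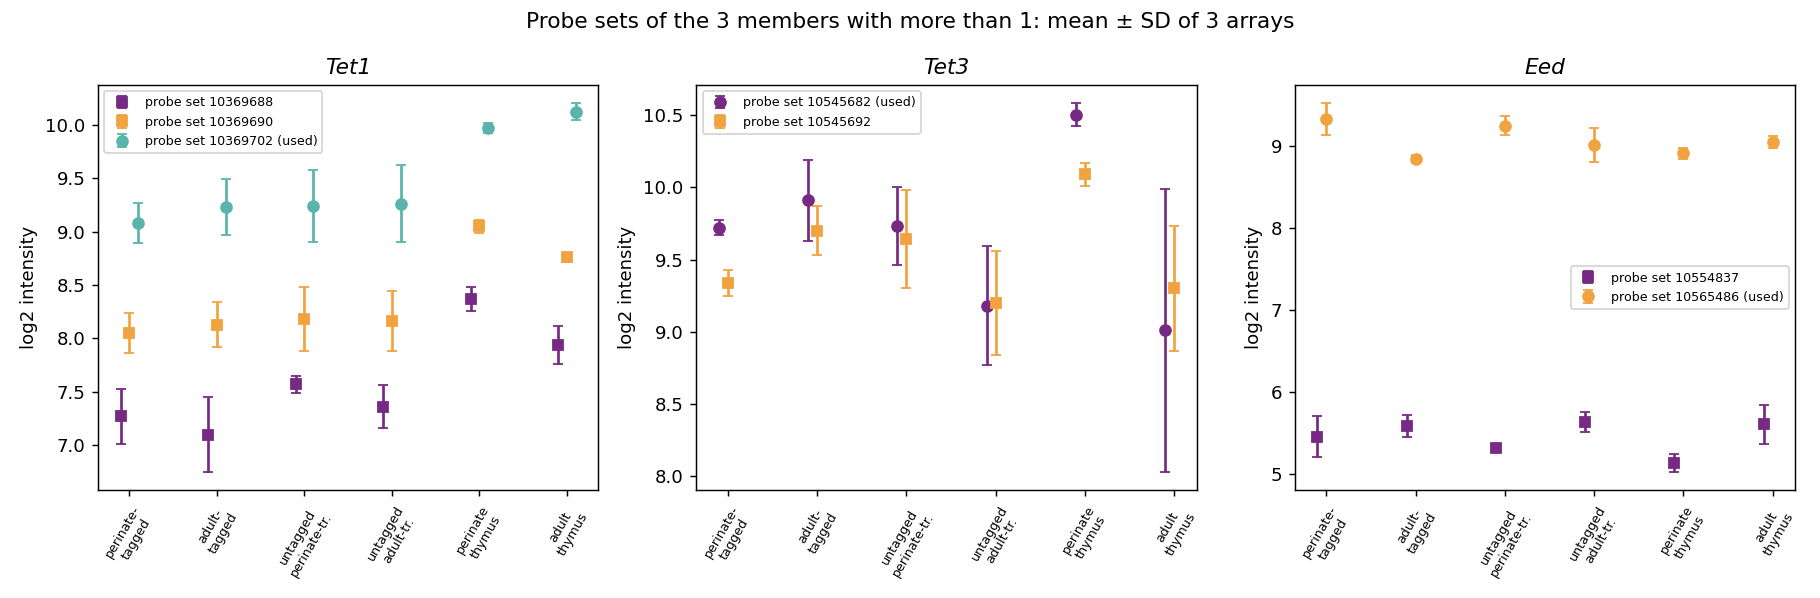
Mean and SD of 3 arrays (y axis, log2 intensity) for each probe set of Tet1, Tet3 and Eed in the 6 groups (x axis; tr., treated); circles are the probe sets used and squares the others. The Tet1 probe sets differ in sign between the thymus groups, and the other Eed probe set lies at 5.02 to 5.81 over the arrays, within the background range.

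Among the 9 members tested, untagged cells of the 2 treatments gave 0 calls, and 0% of all genes were called by limma (380 genes had an unadjusted p under 0.05, Tet3 among them, at 0.0145). The smallest adjusted p over all genes was 0.995. Untagged arrays of the same number deviated together for replicates 3 and 5 (r of 0.62 and 0.45), but not clearly for replicate 4 (r of 0.13). With the replicate number as a block in a fit of the 6 untagged arrays alone, 49 genes and 0 members passed. Tet3 reached 0.55 ± 0.15 there (limma, adjusted p = 0.078). The interaction, which asks whether the tagged difference exceeds the untagged one, called 2 of 9 members, Uhrf1 and Ezh2, both higher, where 4.89% of all genes were called, 4.29% higher and 0.599% lower. Tagged against untagged cells of the perinate treatment differed for 3 of 9 members, Uhrf1, Ezh2 and Dnmt1, each higher in tagged cells, against 7.34% of all genes (5.49% higher, 1.86% lower). Dnmt1 was higher there by 0.52 ± 0.14 (limma, adjusted p = 0.033), but only 1 of 6 fits that left out an array kept its call, and without perinate-tagged replicate 2 it was 0.55 ± 0.16 (limma, adjusted p = 0.0548). The count of members was 1 without perinate-tagged replicate 2 or 4 or untagged perinate-treated replicate 4 or 5. In that comparison the median level of 50 small nucleolar RNAs, which depends on RNA preparation as well as on the cells, was 8.14 to 8.53 in tagged and 8.70 to 9.54 in untagged arrays, and its part in the result was not tested. Among the markers of other cells, Cd79b was higher in tagged than in untagged cells of the perinate treatment, by 0.81 ± 0.14 (limma, adjusted p = 0.00286). Its group means there were 9.55 and 8.74, both far above background. The 6 myeloid markers averaged 6.43 to 6.49 in the tagged and 6.13 to 6.29 in the untagged arrays, and the 5 B cell markers 6.36 to 6.48 and 6.16 to 6.45. In the interaction Cd79b (0.77 ± 0.20) and Epcam (1.38 ± 0.32) were higher (limma, adjusted p of 0.0349 and 0.0211). Of these interaction calls, Cd79b was lost without perinate-tagged replicate 2 and after quantile normalization, and both were lost without adult-tagged replicate 1. The part of such cells in these member differences was not tested. Within the adult treatment 0 of 9 members passed in limma, with 0.271% of all genes called and an unadjusted p under 0.05 for Tet3 and Ezh2. These comparisons share groups, so their values are not independent.

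In the thymus 6 of 9 members were higher in perinates and 0 lower, against 24.3% of all genes called, 18.5% higher and 5.84% lower. Those were Dnmt1, Dnmt3a, Uhrf1, Tet2, Tet3 and Suz12. Dnmt1, Dnmt3a and Uhrf1 passed in each of the 6 fits without 1 array and in 11 other settings. Tet2, Tet3 and Suz12 lost their call without adult replicate 3 or any perinate replicate, which left 3 members. The difference of differences between tagged spleen and thymus called Eed higher and Dnmt3a and Tet3 lower, 3 of 9, against 6.46% of all genes (3.89% higher, 2.56% lower). None of the 9 was called without adult-tagged replicate 1 or 2, perinate-tagged replicate 4 or perinate thymus replicate 1 or 2. Markers of other cells moved with the thymus groups. Cd8a, a coreceptor gene that a CD4+ sort should lack, read 10.36 ± 0.04 (SD, n = 3) in adults and 9.75 ± 0.06 in perinates, against group means of 6.52 to 6.83 in spleen. The 6 measured markers of immature thymocytes averaged 7.09 to 7.32 on the adult and 6.77 to 6.93 on the perinate arrays, while Rag1 was near background, at 6.46 ± 0.21 and 6.18 ± 0.41. Of these 6 markers 2 were tested, and 1 of them (Cd8a) was lower in perinates and 0 higher. The 5 B cell markers averaged 6.61 to 6.69 on the adult and 6.19 to 6.32 on the perinate arrays, without overlap, and the 1 of them tested did not pass. Pecam1, 1 of 6 stromal or epithelial markers tested, was higher in perinates (0.56 ± 0.17, limma adjusted p = 0.0494), a call lost under each of 3 rescalings. Its group means were 9.57 to 10.22, far above background in spleen and thymus alike, so it is a weak marker of other cells here. The part of these cells in the member differences was not tested.

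**Figure D3:**
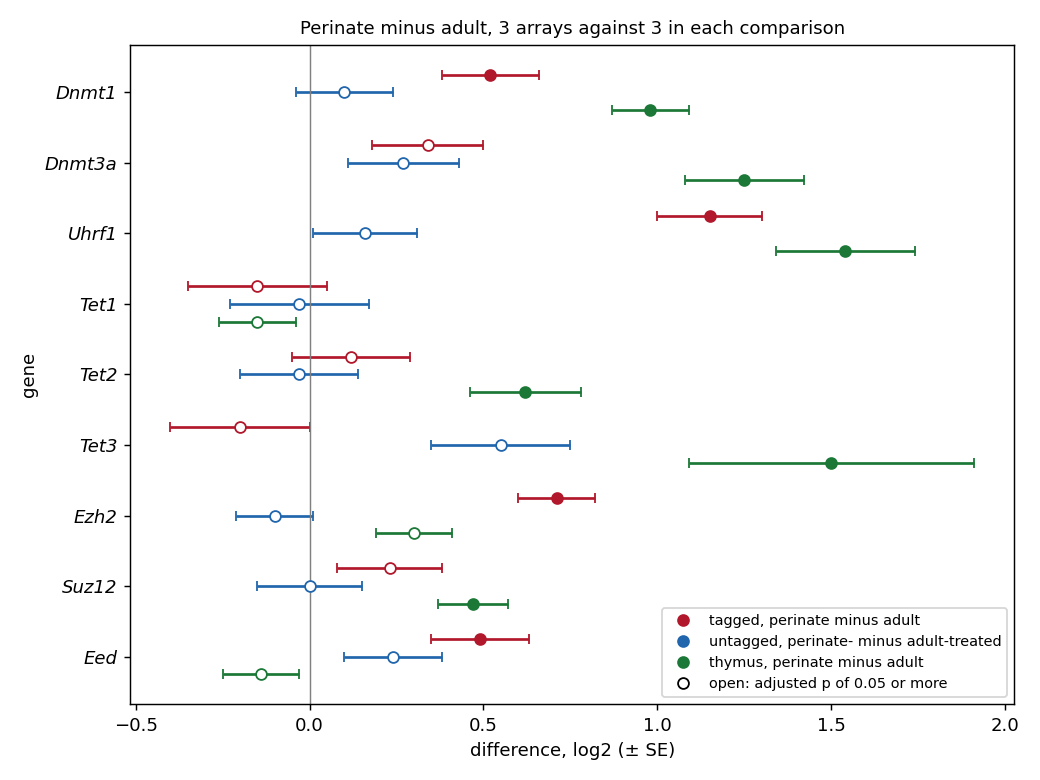
Differences of the 9 tested members (x axis, log2, bars ± SE; y axis, gene) between perinate and adult groups, 3 arrays against 3, in tagged spleen cells, untagged spleen cells and thymus; filled points passed an adjusted p of 0.05. The untagged points are all open, and Uhrf1 and Dnmt1 are filled and positive in both tagged spleen and thymus.

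The scale of the arrays bears on these counts. Of all genes in the tagged comparison 1658 were higher and 362 lower, but 1067 and 901 after quantile normalization, and 913 and 1368 after centring each array on the genes tested. The corresponding numbers in the thymus were 1967 and 622, then 1208 and 1050, then 1178 and 1631. Under either of these rescalings the tagged members called were Uhrf1 and Ezh2 alone, at 2 of 9. Median centring, on all genes of each array, went the other way. It gave 1964 genes higher and 216 lower in the tagged comparison and kept all 4 members called. The lowest value of Uhrf1 over the settings other than leaving out an array was 0.94 and that of Ezh2 was 0.50, both still past the threshold.

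Genes of DNA replication, in which maintenance methylation takes place, were higher in the perinate-tagged and perinate thymus groups, as were Uhrf1 and Dnmt1. The other members did not pass in both comparisons. All 20 of the 20 listed replication genes were higher in perinate-tagged than in adult-tagged cells, with a median of 1.14 (0.12 over all genes tested). In the perinate thymus 18 of 20 were higher, with a median of 1.33. None of the 20 was called between the untagged groups. Rrm2, which supplies deoxynucleotides, differed by 2.27 ± 0.24 in tagged cells (limma, adjusted p = 1.64e-05), and Pole, a replicative polymerase, by 1.70 ± 0.17 (limma, adjusted p = 9.85e-06). Mitosis genes gave 14 of 14 higher in both comparisons. Their median was 2.40 in tagged cells and 1.46 in the thymus. After centring on the genes tested 19 replication genes remained higher in tagged cells, and without adult-tagged replicate 1, 18 were. By array, the mean of the 20 replication genes was 8.88 to 9.18 in perinate-tagged, 7.76 to 8.02 in adult-tagged, 8.15 to 8.40 in untagged perinate-treated and 8.03 to 8.40 in untagged adult-treated cells. It was 9.33 to 9.50 in the perinate and 7.88 to 8.40 in the adult thymus. In bulk RNA, more cells in cycle and more transcript per cell cannot be told apart, and the part of cycling cells in the member differences was not tested.

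**Figure D4:**
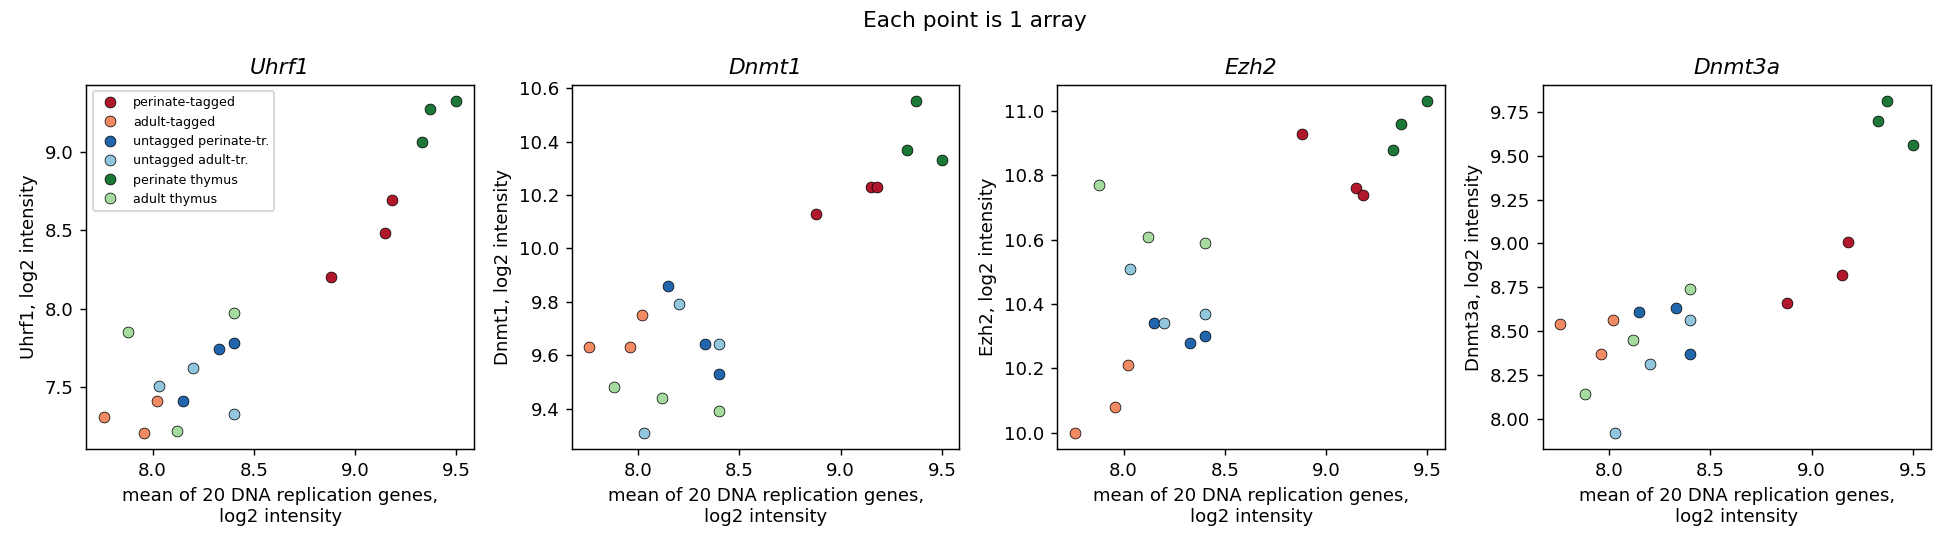
Log2 intensity of Uhrf1, Dnmt1, Ezh2 and Dnmt3a (y axes) against the mean log2 intensity of 20 DNA replication genes (x axes), 1 point per array, coloured by group (tr., treated). The perinate-tagged and perinate thymus arrays lie at 8.88 or more on the x axis, and the other 4 groups at 8.40 or less.

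Genes were also ranked by the likeness of their pattern to each member, as the root mean square difference between the 6 group means of the genes, each centred on its own mean, over 10383 genes. Nearest to Uhrf1 were Lig1, the replicative DNA ligase (0.06), Mcm2 of the replicative helicase (0.117) and Slc16a6, a transporter (0.12), where the median gene was at 0.638. Lig1 itself differed by 1.23 ± 0.15 between tagged groups and by 1.43 ± 0.14 between thymus groups. Nearest to Ezh2 was Spc24, a kinetochore gene (0.057), followed by Tuft1 and Arhgap21 (0.076 each). Nearest to Dnmt1 was Nup205 of the nuclear pore (0.04), followed by Cd160 (0.049) and Ppp2r3c (0.053). Dnmt3a was nearest to Zgrf1 (0.064), Tet1 to Sdc4 (0.07), Tet2 to Btaf1 (0.022), Tet3 to Srebf2 (0.154), Suz12 to Tlk1 (0.023) and Eed to Sgms1 (0.037). Members with a narrow range have small values by construction, and likeness over 6 group means is a description.

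Of the genes that work with DNA methylation, 18 of 23 on the array were tested, and 5 were higher in perinate-tagged cells and 0 lower, where 16% of all genes were called higher and 3.5% lower. Hells, a chromatin remodeller that supports maintenance methylation, was 8.43 ± 0.47 (SD, n = 3) in perinate-tagged against 6.84 ± 0.19 in adult-tagged cells, a difference of 1.59 ± 0.24 (limma, adjusted p = 0.000434). It also showed an interaction of 1.60 ± 0.34 (limma, adjusted p = 0.0138) and a thymus difference of 1.73 ± 0.23 (limma, adjusted p = 0.00239). Gadd45g, a stress gene linked to demethylation, was higher by 0.91 ± 0.21 in tagged cells and by 0.86 ± 0.18 in the perinate thymus. Its relative Gadd45b was higher by 0.74 ± 0.22 in tagged cells. After quantile normalization, after centring on the genes tested or without adult-tagged replicate 1, 2 of the list were higher in tagged cells, Hells and Gadd45g. Without perinate-tagged replicate 2, Hells, Gadd45g and Gadd45b kept their calls, and the other calls among the 5 were lost. In the thymus 4 of 18 were higher, near the 18.5% of all genes, among them Trim28, a corepressor that helps keep imprints methylated, by 0.76 ± 0.13 (limma, adjusted p = 0.00617). For Trim28 the tagged spleen difference was 0.08 ± 0.13.

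Of the other PRC2 genes, 10 of 11 were tested and 2 were higher in perinate-tagged cells, near the 16% of all genes called higher. Phf19, a subunit that brings PRC2 to chromatin, was 7.68 ± 0.25 (SD, n = 3) against 7.0 ± 0.24, higher by 0.68 ± 0.15 (limma, adjusted p = 0.00687). Rbbp7, a histone-binding subunit that PRC2 shares with other complexes, was higher by 0.55 ± 0.12 (limma, adjusted p = 0.00485). Both kept their call under 3 rescalings and without adult-tagged replicate 1 or perinate-tagged replicate 2. Within the perinate treatment the same pair was higher in tagged than in untagged cells, and Phf1, a relative of Phf19, was lower in tagged cells (-0.70 ± 0.18, limma adjusted p = 0.0305). Of these the calls of Rbbp7 and Phf1 were lost without perinate-tagged replicate 2. In the perinate thymus Phf19 was higher by 1.06 ± 0.14 (limma, adjusted p = 0.00257) and Jarid2, a DNA-binding cofactor, by 0.36 ± 0.11 (limma, adjusted p = 0.048), the latter call being lost after quantile normalization and after centring on the genes tested. Ezh1, the other catalytic subunit, gave -0.15 ± 0.12 in tagged cells and -0.31 ± 0.11 in the thymus, and passed in neither (limma, adjusted p = 0.404 and 0.0769). After quantile normalization the list gave 2 higher and 3 lower in tagged cells, so its balance depends on the scale.

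The PRC1 genes, whose complex places ubiquitin on histone H2A, gave 2 of 21 higher in perinate-tagged cells, a smaller share than the 16% of all genes: Pcgf2 by 0.81 ± 0.22 (limma, adjusted p = 0.019) and Kdm2b by 0.45 ± 0.14 (limma, adjusted p = 0.0418). Without adult-tagged replicate 1 none of the 21 passed, and the call of Pcgf2 was also lost without perinate-tagged replicate 2. In the thymus 5 were higher (18.5% over all genes), led by Kdm2b (0.68 ± 0.18), and 2 lower, Rybp (-0.64 ± 0.17) and Phc3 (-0.39 ± 0.11). After quantile normalization the thymus counts were 1 and 3, and without adult thymus replicate 2 they were 5 and 5. Genes that oppose Polycomb gave 0 higher and 3 of 11 lower in perinate-tagged cells, against 3.5% of all genes lower: the histone H3 lysine 4 methyltransferases Kmt2a (-0.62 ± 0.12, limma adjusted p = 0.00262), Kmt2d (-0.61 ± 0.13, limma adjusted p = 0.0056) and Kmt2c (-0.43 ± 0.14, limma adjusted p = 0.0483). Kmt2a read 10.71 ± 0.04 in perinate-tagged against 11.32 ± 0.02 in adult-tagged cells (SD, n = 3). The interaction with the untagged difference passed for Kmt2d (-0.90 ± 0.19, limma adjusted p = 0.0114) and Kmt2a (-0.68 ± 0.17, limma adjusted p = 0.0313), but that of Kmt2a was lost after median centring and without adult-tagged replicate 1, as was the tagged difference of Kmt2c. The list gave 2 lower in tagged cells without that array, 5 lower after quantile normalization and 6 lower after centring on the genes tested. In the perinate thymus Bap1 (0.79 ± 0.22) and Smarca4 (0.52 ± 0.12) were higher and Asxl2 was lower (-0.39 ± 0.12), with the call of Smarca4 lost after quantile normalization and that of Asxl2 after median centring.

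**Figure D5:**
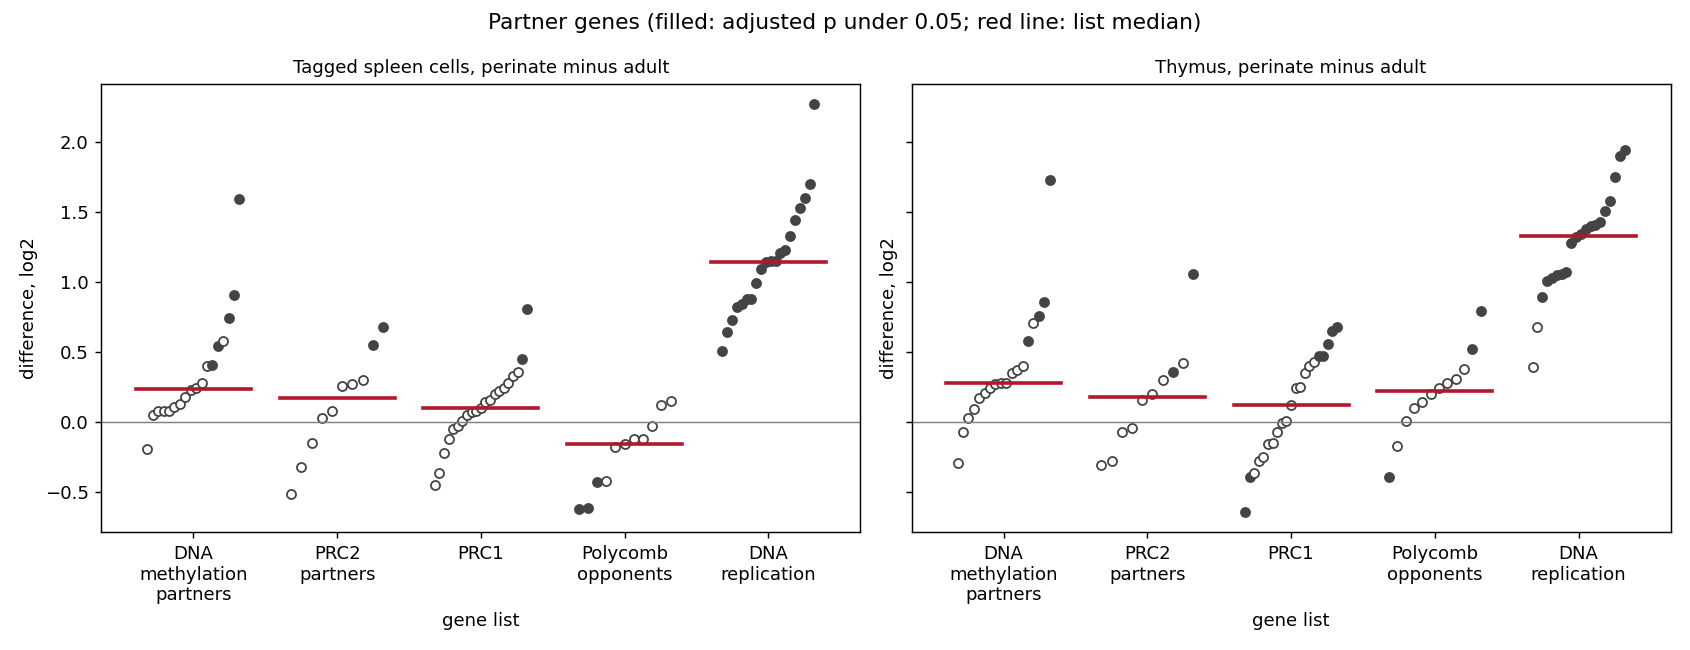
Differences (y axis, log2) of the genes of 5 lists (x axis) between perinate and adult groups, in tagged spleen cells and in thymus; each point is 1 gene, filled where the adjusted p was under 0.05, and red lines are list medians. All 20 replication genes lie above 0 in both panels, and the 3 filled Polycomb opponents of the tagged panel lie below 0.

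Loci that these enzymes silence in many cells were at or near the background. Of 14 Polycomb-silenced loci, Hox genes and the cell cycle inhibitor Cdkn2a among them, 1 passed the filter and 0 were called in any comparison. Cdkn2a read from 6.59 to 6.84 by group mean. Of 14 germline genes silenced by DNA methylation none passed the filter, and their mean on an array was 4.75 to 5.18. Of the 6 Treg genes with demethylated regions, 1 was lower in perinate-tagged cells, Il2ra, the interleukin 2 receptor chain (-0.39 ± 0.12, limma adjusted p = 0.0416), a call lost after median centring and without adult-tagged replicate 1. Foxp3 differed by -0.31 ± 0.12 there and did not pass (limma, adjusted p = 0.0877). DNA methylation and histone marks were not measured on these arrays.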

How the data were processed

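Sorted Treg RNA was hybridised to 18 Affymetrix Mouse Gene 1.0 ST arrays after TriZol extraction and biotin labelling, per the labels. The authors deposited probe set intensities on the linear scale (6.81 to 18850), and the submitters' processing notes name RMA and Affymetrix Power Tools. Versions, genome build and the list of arrays normalized together are not given in the sources used here. The chimera arm of the design is not analysed here. The log2 of each value was taken, without pseudocount since none was below 1, and nothing was renormalized in the main analysis. Of 24922 probe sets, 21425 carry 1 symbol, 1399 several and 2098 none, and 1 probe set per gene gave 19752 genes. A gene was tested if a group mean reached the median of all values, 132.7 linear (7.052 log2), which left 10350 genes in spleen (12 arrays), 10650 in thymus (6 arrays) and 10889 in all 18 arrays.

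The test was that of limma 3.58.1, run under R 4.3.3 (lmFit, eBayes, two-sided, group means, Benjamini-Hochberg over the genes of a contrast, threshold 0.05). An exact permutation test of 3 arrays against 3 cannot go below 0.1, so none was run. The small number of arrays limits the precision. Same-numbered untagged arrays deviated together for replicates 3 and 5 (r of 0.62 and 0.45). For replicate 4 r was 0.13, below the 0.28 and 0.29 between replicates 4 and 5 of the untagged groups. The numbers were taken to pair these arrays, from the data only, and the pairing is uncertain. All 10 members are named. From each other list, up to 3 higher and 3 lower genes past the threshold are named, and Ezh1, Foxp3, Cdkn2a, Rag1, Cd79a and Ms4a1 were chosen after their values were seen. Members and lists were chosen with earlier results of these data known. The scripts were tested on simulated data. Promoter windows and symbols are from RefSeq (GRCm38.p6), and motifs were searched on both strands. Figures used matplotlib 3.10.9 in Python 3.11.15.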

Additional observations from a re-analysis of the deposited data

Results flagged for a closer look

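A pair of members differed in their perinate minus adult difference between tagged and untagged spleen cells by a direct test of that difference: Uhrf1 by 0.99 and Ezh2 by 0.81 on the log2 scale (limma interaction, adjusted p of 0.012 and 0.00814). With the replicate number of all spleen arrays as a block, Uhrf1 was at 0.88 and no longer passed (limma, adjusted p = 0.083). A further 3 differed between tagged spleen and thymus: Dnmt3a by -0.91, Tet3 by -1.69 and Eed by 0.63 (limma, adjusted p of 0.0264, 0.0297 and 0.041). These calls were lost in 7, 8 and 10 of 12 fits that left out 1 array, in that order. Organ, sex, sorter and age cannot be told apart in those 3 values.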

How the results depend on the processing

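Results depended on the scale of the arrays, on single arrays and on how their spread was weighted. Over settings other than leaving out an array, 180 of 200 called member values kept direction and call and 20 lost the call, and 13 uncalled ones gained it. When 1 array was left out, 84 of 138 called member values kept the call, 54 lost it, and 2 uncalled ones gained it. In tagged cells the member count was 2 after quantile normalization, with the interquartile range as covariate and after centring on the genes tested (chosen after seeing the data), and 7 with array weights. The members that array weights added there were Dnmt3a, Tet2 and Suz12. All-gene counts there were 5904 with array weights, 376 with the interquartile range as covariate and 3371 with only the groups compared. The reversed value was Tet1 in the thymus, 0.43 with the third of its probe sets. Array weights gave 1077 genes for the interaction, 3867 for tagged against untagged cells of the perinate treatment, 71 for the adult treatment, 1566 in the thymus and 5085 (7 members) for spleen against thymus. The adult tagged against untagged count was 17 with no filter, 0 with the covariate, 120 with only the groups compared, 99 with all 18 arrays and 12 after centring on the genes tested. Spleen against thymus gave 1064 genes after quantile normalization, 1462 with the covariate, 1055 with only the groups compared and 1082 after centring on the genes tested, and 1 member after median centring.

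A block of the replicate number over all spleen arrays, tagged ones included, took the interaction to 274 genes and 1 member (Ezh2). In a fit of the untagged arrays alone the block gave 49 genes. The block changed no other member call. The thymus numbers (r of -0.05, 0.07 and 0.12) do not pair the arrays, and the block left 6 members there. No paired analysis was possible between the tagged groups, or between tagged and untagged adult-treated cells, because they share 1 number.

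Without 1 array at a time, genes called ranged from 906 to 2052 in tagged cells, 0 to 5 in untagged, 279 to 679 for the interaction, 299 to 1001 and 0 to 774 for tagged against untagged cells of the perinate and adult treatments, 707 to 4388 in the thymus and 393 to 1069 for spleen against thymus. Members called ranged from 2 to 4, 0 to 0, 2 to 2, 1 to 3, 0 to 1, 3 to 7 and 0 to 3 in the same order.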
